A study of Mus musculus with 6 samples.

Results

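The 10 genes described here encode the enzymes that write and remove DNA methylation, the core partners that guide the maintenance enzyme, and the catalytic subunits of Polycomb repressive complex 2. They were chosen by name from the family and complex, by a rule that uses no measured value, with earlier results of these data known: Dnmt1, Uhrf1, Hells, Dnmt3a, Dnmt3b, Tet1, Tet2, Tet3, Ezh1 and Ezh2. They are 10 of the 54532 genes in the count table, and all 10 were among the 14679 genes that passed the filter on low counts of edgeR and were tested. Bulk RNA-seq gave their transcript levels in primary myoblasts, which are cultured muscle progenitor cells, in 3 libraries labelled WT and 3 labelled eIF5A-KO.

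eIF5A-KO mice carried Pax7CreERT2/+;eIF5A f/f, in which tamoxifen activates a Cre recombinase driven by the satellite cell gene Pax7 and deletes the floxed gene for the translation factor eIF5A. The study names WT littermates as controls where it profiles ribosome-bound RNA of primary myoblasts. It describes its control animals in different ways (Pax7CreERT2/+ in its text, eIF5A f/f without Cre in a legend). Which of these the WT libraries carried is not given in the sources used here. The study describes its eIF5A-KO primary myoblasts as taken from tamoxifen-induced mice 3 weeks old. Whether the WT mice behind these libraries received tamoxifen is not given in the sources used here. Cells of both groups grew in 10% fetal bovine serum with FGF (10 ug/ml) and were collected at day 2. Cre acts only in cells that express Pax7, and no sorting of these cultures is described, so that other cells of the muscle could remain in them. No source says whether the 3 libraries of a group came from separate animals, and the p-values below measure only the spread between these libraries.

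Dnmt1 copies methylation onto the new strand after DNA replication, Uhrf1 recognises the half-methylated site and recruits Dnmt1, and Hells is a chromatin remodeller that opens nucleosomes for this step. Dnmt3a and Dnmt3b add methylation to unmethylated sites, and the TET enzymes oxidise methylated cytosine as the start of its removal. Ezh2 and Ezh1 are alternative methyltransferases of Polycomb repressive complex 2 (PRC2), which places trimethylation on lysine 27 of histone H3 and keeps genes silent. Ezh2 is known as the form of dividing cells and Ezh1 as the form of resting and differentiated cells. In muscle progenitors, Ezh2 is known to repress muscle genes before differentiation.

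The promoters of 4 of the 10 genes held a motif of the kind that E2F factors bind, a family known to drive genes of DNA synthesis, and they are shown because these 4 genes also include the 2 whose libraries did not overlap between the genotypes. The sequences are from RefSeq (GRCm38.p6) and run from 250 bases before to 50 bases after an annotated start site, in the direction of the gene, with the motif in capitals. The windows are chr17:56304063-56304362 on the plus strand for Uhrf1, chr9:20952574-20952873 on the minus strand for Dnmt1, chr19:38930740-38931039 on the plus strand for Hells and chr6:47594981-47595280 on the minus strand for Ezh2.
Uhrf1: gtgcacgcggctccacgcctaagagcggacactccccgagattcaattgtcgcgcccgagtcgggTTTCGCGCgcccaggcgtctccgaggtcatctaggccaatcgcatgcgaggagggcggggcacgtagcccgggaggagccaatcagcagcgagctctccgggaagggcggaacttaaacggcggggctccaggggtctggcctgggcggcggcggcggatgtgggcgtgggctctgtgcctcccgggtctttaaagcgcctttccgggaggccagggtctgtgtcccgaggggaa
Dnmt1: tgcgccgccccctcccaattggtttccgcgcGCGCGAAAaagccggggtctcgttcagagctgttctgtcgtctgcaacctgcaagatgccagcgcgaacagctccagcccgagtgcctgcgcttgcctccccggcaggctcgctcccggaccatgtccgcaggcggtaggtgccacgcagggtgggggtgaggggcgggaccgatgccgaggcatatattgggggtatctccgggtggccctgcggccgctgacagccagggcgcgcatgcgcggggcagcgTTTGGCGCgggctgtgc
Hells: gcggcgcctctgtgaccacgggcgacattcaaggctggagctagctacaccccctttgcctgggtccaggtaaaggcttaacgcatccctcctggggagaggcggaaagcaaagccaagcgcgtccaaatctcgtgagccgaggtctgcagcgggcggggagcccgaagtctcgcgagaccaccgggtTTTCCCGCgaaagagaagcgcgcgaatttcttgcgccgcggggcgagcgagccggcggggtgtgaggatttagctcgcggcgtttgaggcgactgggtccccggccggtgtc
Ezh2: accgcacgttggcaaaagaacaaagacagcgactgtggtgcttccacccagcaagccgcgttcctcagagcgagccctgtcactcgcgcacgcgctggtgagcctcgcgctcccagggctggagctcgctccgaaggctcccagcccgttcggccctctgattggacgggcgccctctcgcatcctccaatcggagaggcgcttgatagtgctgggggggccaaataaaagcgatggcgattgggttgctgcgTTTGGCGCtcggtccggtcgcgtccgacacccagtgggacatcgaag

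The motifs searched on both strands were TTTCCCGC, TTTGGCGC, TTTCGCGC and TTTGCCGC, a choice made after the members and their sequences had been seen. TTTCGCGC began 185 bases before the start site of Uhrf1. In Dnmt1 it lay on the opposite strand, 219 bases before the start site of the promoter shown, and TTTGGCGC began 33 bases after that site. Hells held TTTCCCGC at 62 bases before its start site, and Ezh2 held TTTGGCGC at 3 bases after it. No window of Dnmt3a, Dnmt3b, Tet1, Tet2, Tet3 or Ezh1 held any of the 4 letterings, nor did the other 2 windows of Dnmt1 and the other window of Uhrf1. Of all 32851 promoter windows of this length, 744 (2.26%) held at least 1 of them. By gene symbol these were 704 of 27025, or 2.61%. A match to these letters describes the sequence and is not a measured binding site. The motifs and the promoters shown were both chosen with the data already seen, so these shares are a description and not a test.

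Before the genotypes are compared, the libraries themselves need description. Total counts lay between 16281216 and 17734551 per library. Eif5a, the targeted gene, had 1603, 986 and 1238 CPM in WT and 1364, 1459 and 1059 CPM with the knockout label, in counts scaled to a common library size with TMM factors (CPM). The groups overlapped, and the log2 fold change was 0.021 (95% CI -0.51 to 0.55, edgeR adjusted p = 0.993). Its direction turned when any of WT replicate 2 or the libraries labelled eIF5A-KO replicates 1 and 2 was left out. The transcript therefore does not check the labels, and a deleted part of the gene cannot be read from gene totals. WT replicate 1 stood apart in its mitochondrial share, 5.75% of counts against 2.11% to 3.50% in the other 5 libraries. Every library held Xist (2074 to 5514 counts) together with the Y-linked Ddx3y (83 to 632 counts), so that each contained RNA of both sexes. Xist was at 4651, 4829 and 5514 counts in WT and at 3142, 3098 and 2074 counts in the other group, without overlap, while Ddx3y overlapped at 208, 632 and 158 against 83, 250 and 588 counts. The part of this difference in the results was not tested.

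Transcript levels of the 10 genes spanned a wide range, and Uhrf1 and Dnmt1 were at its top. On the FPKM scale of the authors, which divides by gene length, the mean over the 6 libraries was 23.4 for Uhrf1 and 19.0 for Dnmt1. Ezh1 followed with a mean FPKM of 6.40, Ezh2 with 5.62, Hells with 4.73 and Tet3 with 3.09. Dnmt3a had a mean of 1.60 FPKM, Dnmt3b of 0.911, Tet2 of 0.691 and Tet1 of 0.0871. Between neighbours in this order the ranges over the 6 libraries were apart in 3 places, between Dnmt1 and Ezh1, between Dnmt3a and Dnmt3b and between Tet2 and Tet1. The other neighbours overlapped in range, although Tet3 exceeded Dnmt3a in all 6 libraries and Uhrf1 exceeded Dnmt1 in 5 of 6. The lengths that the authors divided by join all annotated exons of a gene (16642 bases for Dnmt3a and 4259 for Uhrf1), so that the FPKM of a gene with long alternative ends is low relative to its main transcript.

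**Figure D1:**
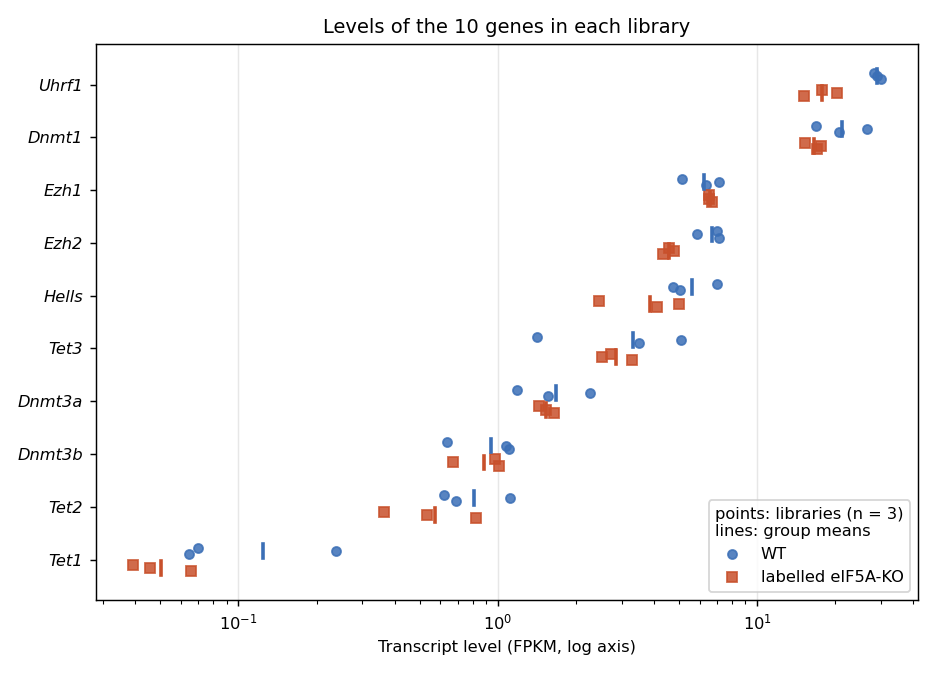
Level of each of the 10 genes in FPKM on a log axis, with 1 point per library (circles for WT, squares for libraries labelled eIF5A-KO) and a line at each group mean (n = 3). Uhrf1 and Dnmt1 lie above 15 FPKM in every library and Tet1 at or below 0.238 FPKM, and only for Uhrf1 and Ezh2 are the squares and circles fully apart.

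Within the DNMT and TET families a single gene supplied most of the transcript. Dnmt1 made up 86.4% to 90.2% of the summed FPKM of the 3 DNA methyltransferases over the 6 libraries. Tet3 made up 67.1% to 87.2% of the TET family, Tet2 11.6% to 29.5% and Tet1 1.25% to 3.70%. The Ezh pair was close to balanced, with Ezh2 at 39.2% to 57.6% of the summed FPKM of Ezh1 and Ezh2.

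When the genotypes were compared, which is the single comparison of the series, the maintenance factor Uhrf1 and the PRC2 enzyme Ezh2 were lower in every library labelled eIF5A-KO than in every WT library, by 0.608-fold (95% CI 0.467 to 0.791) and 0.681-fold (0.526 to 0.882). Of the 10 genes, 9 had a log2 fold change below 0 and Ezh1 was above it. None of the 10 passed an adjusted p under 0.05 with edgeR, against 3 of all 14679 tested genes (0.0204%). At an unadjusted p under 0.05, 3 of the 10 were lower (Uhrf1, Ezh2 and Tet1) and 0 were higher, where the shares of all tested genes were 4.02% lower and 2.74% higher, or 6.76% in either direction. With the fold limit of 2 that the study adds to this p-value, 1 of the 10 remained, Tet1, against 1.85% of all tested genes. DESeq2 called 1 of the 10 after adjustment, Uhrf1, and 92 of all 14679 tested genes, and limma-voom called 0 of both. Groups did not overlap for 2 of the 10, both lower, against 6.83% of all tested genes in that direction and 5.68% in the other. The median log2 fold change of the 10 genes was -0.43, and that of all tested genes was -0.011. Without WT replicate 2 the median of the 10 genes was -0.19, with 6 lower and 4 higher, and without WT replicate 1 all 10 were lower, 5 of them with an unadjusted p under 0.05 in edgeR, where 819 of 15056 tested genes were lower at that level. Both leave Uhrf1 (-0.72 and -0.73) and Ezh2 (-0.64 and -0.51) close to their values from 6 libraries.

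**Figure D2:**
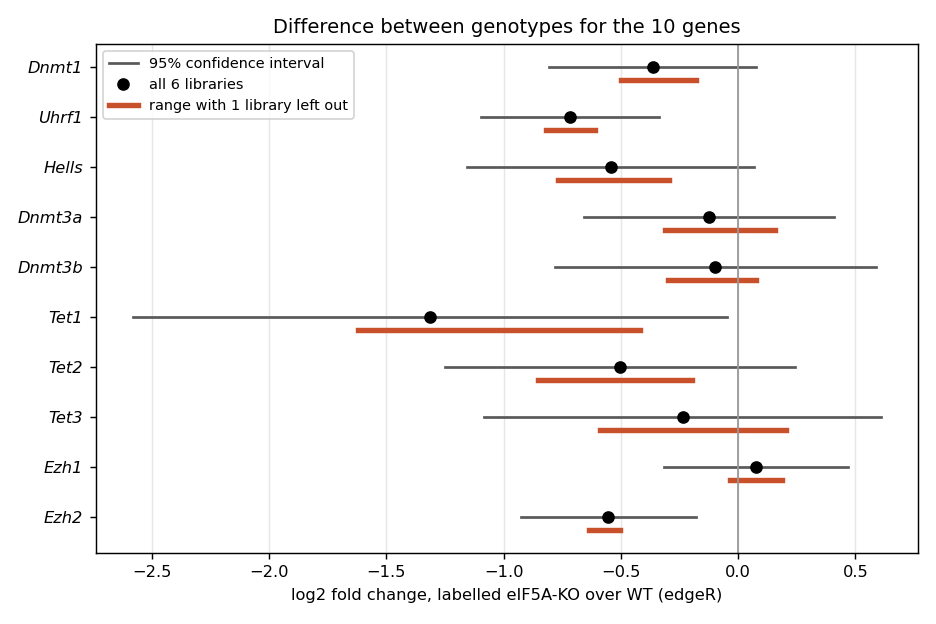
Log2 fold change of each gene, libraries labelled eIF5A-KO over WT, from edgeR (points), with the 95% confidence interval (thin lines, 3 libraries per group) and the range obtained when each of the 6 libraries was left out in turn (thick lines). The intervals of Uhrf1, Ezh2 and Tet1 lie below 0, and the Tet1 range reaches from -1.62 to -0.42.

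Among the maintenance genes, Uhrf1 (chr17:56303321-56323486, plus strand) had 122, 125 and 129 CPM in the WT libraries. In the libraries labelled eIF5A-KO it had 76.5, 87.2 and 64.7 CPM. The WT values lay within a few CPM of each other, and the highest library labelled eIF5A-KO was well below the lowest WT library. The log2 fold change was -0.72 (95% CI -1.10 to -0.34, adjusted p = 0.379 by edgeR's quasi-likelihood test, from an unadjusted p of 0.00197), and by p-value Uhrf1 was number 76 of the 14679 tested genes. With DESeq2 the adjusted p was 0.0351, the only 1 of 17 alternative settings in which it passed 0.05. Over these settings its log2 fold change stayed between -0.82 and -0.61 and its adjusted p ranged from 0.0351 to 1.00. The transcript of the pseudogene Gm5648 matches Uhrf1 at 98.3% over 1590 bases, but Gm5648 itself received only 2 to 17 counts per library, against 1142 to 2348 for Uhrf1.

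Dnmt1 (chr9:20907209-20959888, minus strand) had 126, 197 and 154 CPM in WT and 114, 130 and 126 CPM in the libraries labelled eIF5A-KO. WT replicate 2 was the highest of the 6, and WT replicate 1 lay among the libraries labelled eIF5A-KO, so that the groups overlapped. The log2 fold change was -0.36 (95% CI -0.80 to 0.075, adjusted p = 0.815 with edgeR, unadjusted p of 0.0939). Without WT replicate 2 it was -0.18, and without WT replicate 1 it was -0.50 with an unadjusted p of 0.0130 in edgeR.

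Hells, the remodeller, had 51.3, 34.6 and 36.7 CPM in WT and 17.9, 36.4 and 29.7 CPM in the libraries labelled eIF5A-KO. The lowest value belonged to replicate 1 of the libraries labelled eIF5A-KO, while their replicate 2 lay among the WT values. The log2 fold change was -0.54 (95% CI -1.16 to 0.069, adjusted p = 0.805 with edgeR, unadjusted p of 0.0758). It moved to -0.30 without replicate 1 and to -0.77 without replicate 2 of the libraries labelled eIF5A-KO.

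The Uhrf1 and Dnmt1 transcripts were also compared within each library, which does not depend on scaling between libraries. The FPKM ratio of Uhrf1 to Dnmt1 was 1.68, 1.10 and 1.45 in WT and 1.16, 1.16 and 0.893 in the libraries labelled eIF5A-KO. The groups overlapped, and the log2 difference of -0.39 had an exact permutation p of 0.3 (two-sided, 0.8 after adjustment over the 8 ratios computed). With 3 libraries against 3 no such p can fall below 0.1.

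The de novo enzymes did not separate by genotype. Dnmt3a had 19.97, 38.0 and 26.3 CPM in WT and 24.3, 25.6 and 27.5 CPM in the libraries labelled eIF5A-KO, all of which lay inside the WT range. Its log2 fold change was -0.12 (95% CI -0.66 to 0.41, adjusted p = 0.966 with edgeR). Dnmt3b, a gene known for its high level in embryonic cells, had 3.30, 5.57 and 5.67 CPM in WT and 5.02, 3.43 and 5.16 CPM in the libraries labelled eIF5A-KO. Its log2 fold change was -0.097 (95% CI -0.78 to 0.59, adjusted p = 0.977 with edgeR), and the interval includes changes in either direction.

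For both genes the direction turned when single libraries were left out. The ratio of Dnmt3a to Dnmt3b in FPKM was 1.86, 2.10 and 1.42 in WT and 1.49, 2.29 and 1.64 in the libraries labelled eIF5A-KO, with the means of the log2 ratio at 0.82 in both groups (exact two-sided permutation p = 1, adjusted 1). Dnmt3c, a close copy of Dnmt3b (93.3% over 1655 bases), had 0 to 4 counts per library against 51 to 105 for Dnmt3b. Reads on Dnmt3a cannot be told from those on Dnmt3aos, whose exons overlap it on the opposite strand, because no strand-specific counting is stated, and the same holds for Tet2 with Gm42567 and Ezh2 with Gm26625.

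Of the TET genes, Tet1 had the largest log2 fold change of the 10 genes and the fewest reads. Its level was 1.10, 3.71 and 1.00 CPM in WT and 0.612, 0.710 and 1.02 CPM in the libraries labelled eIF5A-KO. In reads these were 17, 70 and 17 counts against 10, 12 and 18. WT replicate 2 alone stood high, and the other 2 WT libraries were close to the other group. A log2 fold change of -1.31 (95% CI -2.58 to -0.046, adjusted p = 0.715 with edgeR, unadjusted p of 0.0436) became -0.42 with an unadjusted p of 0.400 in edgeR when WT replicate 2 was left out. The unadjusted p also exceeded 0.05 without replicate 1 (0.124), replicate 2 (0.104) or replicate 3 (0.0571) of the libraries labelled eIF5A-KO in the same edgeR test.

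Tet2 had 10.7, 19.0 and 11.7 CPM in WT and 6.18, 9.06 and 13.9 CPM in the libraries labelled eIF5A-KO. The groups overlapped, with a log2 fold change of -0.50 (95% CI -1.25 to 0.24, adjusted p = 0.873 with edgeR). It ranged from -0.85 without replicate 3 of the libraries labelled eIF5A-KO (unadjusted p of 0.0332 in edgeR) to -0.20 without WT replicate 2. Tet3, the most abundant TET transcript, ranged from 24.0 CPM in WT replicate 1 to 85.7 CPM in WT replicate 2, with 59.1 CPM in WT replicate 3. The libraries labelled eIF5A-KO lay between these extremes at 46.1, 42.3 and 55.0 CPM. The log2 fold change of Tet3 was -0.24 (95% CI -1.08 to 0.61, adjusted p = 0.957 with edgeR), and it was -0.59 without WT replicate 1 (unadjusted p of 0.0127 in edgeR) and 0.20 without WT replicate 2. WT replicate 2 was the highest library for all 3 TET genes, and also for Dnmt1, Dnmt3a and Ezh1. The FPKM ratio of Tet3 to Tet2 overlapped between the groups, at 2.27 to 5.10 in WT and 3.98 to 7.53 in the libraries labelled eIF5A-KO (log2 difference 0.47, exact two-sided permutation p = 0.5, adjusted 0.96).

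Of the 2 alternative enzymes of PRC2, the libraries of the genotypes were apart for Ezh2 and overlapped for Ezh1. Ezh2 (chr6:47530139-47595341, minus strand) had 47.4, 39.7 and 48.1 CPM in WT. It had 30.9, 32.1 and 29.0 CPM in the libraries labelled eIF5A-KO, close to each other and all below the lowest WT library. The log2 fold change was -0.55 (95% CI -0.93 to -0.18, adjusted p = 0.495 with edgeR, unadjusted p of 0.00817), and Ezh2 was number 240 of the tested genes by p-value. In all 17 alternative settings it stayed between -0.64 and -0.46 with an unadjusted p of at most 0.0414, and its adjusted p ranged from 0.205 to 1.00.

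Ezh1 had 38.9, 53.6 and 47.8 CPM in WT and 49.1, 48.6 and 50.1 CPM in the libraries labelled eIF5A-KO, within the WT range. Its log2 fold change was 0.075 (95% CI -0.32 to 0.47, adjusted p = 0.974 with edgeR), and it was -0.033 without WT replicate 1. The FPKM ratio of Ezh2 to Ezh1 was 1.36, 0.825 and 1.12 in WT and 0.702, 0.737 and 0.645 in the libraries labelled eIF5A-KO. The groups did not overlap. Ezh1 had the higher FPKM of the pair in all 3 libraries labelled eIF5A-KO and in 1 of 3 WT libraries. This order depends on the joined exon lengths that the authors divided by (7440 bases for Ezh1 and 6678 for Ezh2). The log2 difference of the ratio was -0.64 (exact two-sided permutation p = 0.1, the smallest that 3 against 3 can give, and 0.8 after adjustment over the 8 ratios). It ranged from -0.83 to -0.47 when each library was left out.

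The other genes of these pathways were read from lists. The list of DNA methylation partners held cofactors and relatives of the members, readers, repair enzymes and enzymes of methyl donor metabolism. Of its 28 genes, 16 were lower and 12 higher, with a median log2 fold change of -0.012. edgeR, DESeq2 and limma-voom each called 0 after adjustment. edgeR placed 3 under an unadjusted p of 0.05, all lower, where 4.02% of all tested genes were lower at that level. Groups did not overlap for 8 lower genes and 1 higher gene of the 28, against 6.83% and 5.68% of all tested genes. Without WT replicate 2, 13 were lower and 15 higher, and the median was -0.16 without WT replicate 1 and -0.098 without replicate 3 of the libraries labelled eIF5A-KO. Without either of these WT libraries 1 gene was higher at an unadjusted p under 0.05. With all 6 libraries the 3 genes under that level were Cdca7, its relative Cdca7l and Ogt. Cdca7, the zinc-finger protein that works with Hells, had 43.7, 42.7 and 37.9 CPM in WT and 18.1, 30.3 and 30.5 CPM in the libraries labelled eIF5A-KO. The groups did not overlap, and the log2 fold change was -0.66 (edgeR adjusted p = 0.560, unadjusted p of 0.0161). Cdca7l had a log2 fold change of -0.78 (edgeR adjusted p = 0.535). Ogt, the O-GlcNAc transferase that binds TET proteins, had a log2 fold change of -0.52 (edgeR adjusted p = 0.540). Uhrf2, the relative of Uhrf1, had a smaller log2 fold change of -0.26, and the glycosylase Tdg had -0.24 (edgeR adjusted p = 0.861 and 0.891).

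Of 11 other PRC2 subunits, 8 were lower and 3 higher, with a median log2 fold change of -0.28. That median was -0.18 without WT replicate 1 (10 lower, 1 higher) and -0.18 without replicate 1 of the libraries labelled eIF5A-KO. None passed either an adjusted or an unadjusted p under 0.05 in edgeR with TMM factors, DESeq2 or limma-voom, and 1 had an unadjusted p under 0.05 in edgeR with library size alone. The core subunits Suz12 and Eed, which Ezh2 needs for activity, had log2 fold changes of -0.30 (95% CI -0.67 to 0.075) and -0.28 (95% CI -0.75 to 0.19). Suz12 was at 72.0, 77.2 and 71.7 CPM in WT and 52.2, 61.7 and 66.0 CPM in the libraries labelled eIF5A-KO, without overlap. Rbbp4, the histone-binding subunit, had a log2 fold change of -0.40, its relative Rbbp7 had -0.28, and the accessory subunit Jarid2 had 0.016 (edgeR adjusted p = 0.791, 0.876 and 0.993).

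Among the opposing H3K27 demethylases, Kdm6a had a log2 fold change of -0.20 and Kdm6b of 0.21 (edgeR adjusted p = 0.915 and 0.973). Kdm6b was at 18.0 CPM in WT replicate 1 and at 54.2 to 77.2 CPM in the other libraries. Of 22 subunits of Polycomb repressive complex 1, 14 were lower and 8 higher with a median of -0.059, and edgeR, DESeq2 and limma-voom called 0 after adjustment. Only Cbx2, which reads trimethylated lysine 27, had an unadjusted edgeR p under 0.05 (log2 fold change -0.59, adjusted p = 0.642). The list's median log2 fold change changed sign when 1 library was left out, to 0.057 for WT replicate 2 and 0.017 for replicate 1 of the libraries labelled eIF5A-KO, and 0 subunits had an unadjusted p under 0.05 without either of these or without their replicate 3. The E3 ligase subunits Ring1 and Rnf2 had log2 fold changes of 0.089 and -0.063, and Bmi1 had -0.18.

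**Figure D3:**
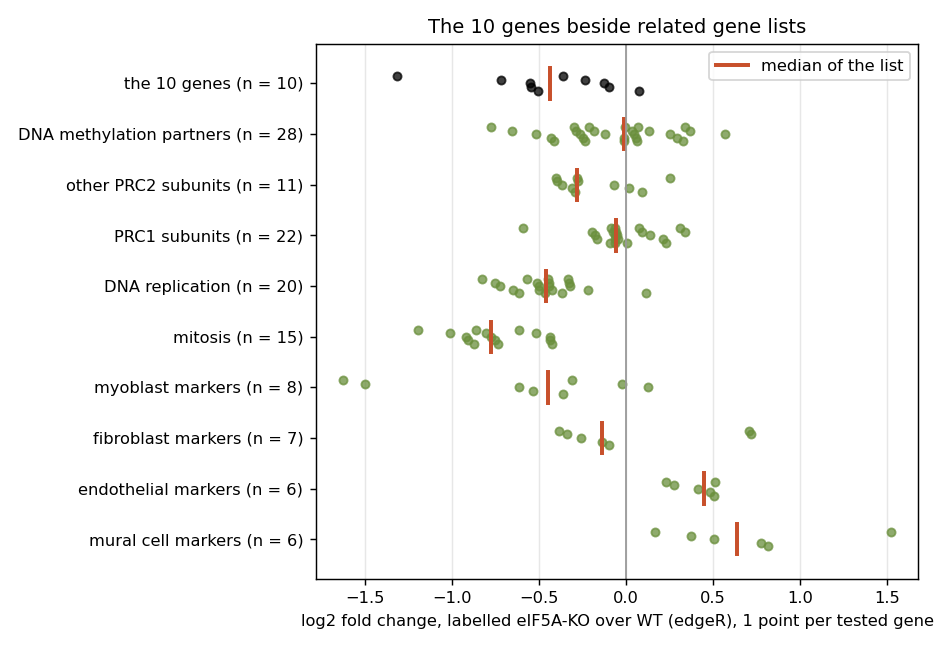
Log2 fold change from edgeR, libraries labelled eIF5A-KO over WT, of every tested gene of the 10 described here (black) and of related lists and cell type markers (green), 1 point per gene, with the median of each list as a line. The medians are -0.43 for the 10 genes, -0.46 for DNA replication, -0.78 for mitosis and -0.059 for Polycomb repressive complex 1.

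Genes known to be silenced by these enzymes were read next. Of 15 germline genes that promoter methylation keeps silent in somatic cells, 2 passed the filter on low counts, Brdt (log2 fold change -0.14) and Tdrkh (-0.22), with overlapping groups. The other 13 were too low to be tested, and Asz1 and Tex101 had 0 counts in every library. Of 6 genes reported as Ezh2 targets in muscle cells or their progenitors, 5 were lower and 1 higher. edgeR placed 3 of them under an unadjusted p of 0.05, all lower, where 4.02% of all tested genes were lower at that level. It called 0 of them after adjustment, where DESeq2 called Cdkn2a and limma-voom called 0. In other edgeR settings the adjusted calls were Myog and Pax7 without WT replicate 1, Myog with the replicate block, and 4 of the 6 genes (Cdkn2a, Myh4, Myog and Pax7) with no filter on low counts. Their median log2 fold change was -1.31, and -0.67 without WT replicate 2.

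Myog, the factor of myocyte differentiation, had 14.4, 76.3 and 32.2 CPM in WT and 8.93, 5.09 and 2.10 CPM in the libraries labelled eIF5A-KO (log2 fold change -2.94, edgeR adjusted p = 0.362). Cdkn2a, an inhibitor of the cell cycle, had 3.75, 4.51 and 3.48 CPM in WT and 1.53, 1.01 and 0.680 CPM in the libraries labelled eIF5A-KO (log2 fold change -1.87, edgeR adjusted p = 0.289). For both genes the groups did not overlap. Nor did they for Cdkn2b, the 1 gene of the list that was higher (log2 fold change 0.37, edgeR adjusted p = 0.860). It had 7.69, 7.21 and 7.15 CPM in WT and 11.9, 8.41 and 8.22 CPM in the libraries labelled eIF5A-KO. Pax7, the satellite cell factor whose promoter drives Cre in this model, had 12.9, 51.7 and 25.2 CPM in WT and 12.97, 8.29 and 10.6 CPM in the libraries labelled eIF5A-KO, with overlap (log2 fold change -1.50, edgeR adjusted p = 0.484).

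Genes of cell division were read from a DNA replication list and a mitosis list. Over all 14679 tested genes 7582 had a log2 fold change below 0, and 4.02% were lower at an unadjusted edgeR p under 0.05. In the DNA replication list 19 of 20 genes had a log2 fold change below 0, 9 of them with an unadjusted edgeR p under 0.05, and the median log2 fold change was -0.46. The summed level of the list was 2099 to 2690 CPM in WT and 1556 to 1904 CPM in the libraries labelled eIF5A-KO, and the replication clamp Pcna, its highest gene in mean CPM, had a log2 fold change of -0.50 (edgeR adjusted p = 0.793). All 15 genes of the mitosis list had a log2 fold change below 0, 12 with an unadjusted edgeR p under 0.05, at a median of -0.78. Their sum was 994 to 1181 CPM in WT and 552 to 751 CPM in the libraries labelled eIF5A-KO, and Top2a, the highest in mean CPM, which is not corrected for gene length, had a log2 fold change of -0.91 (edgeR adjusted p = 0.242). After adjustment edgeR with all 6 libraries and its filter and limma-voom called 0 genes of either list, and DESeq2 called 0 of the replication list and 3 of the mitosis list (Cenpf, Kif11 and Top2a). edgeR called 6 genes of the mitosis list with no filter on low counts (Bub1b, Ccna2, Cdk1, Cenpf, Kif11 and Top2a) and 2 without WT replicate 1 (Kif11 and Mki67). Without replicate 1 or replicate 3 of the libraries labelled eIF5A-KO, 3 genes of the replication list had an unadjusted p under 0.05, and at least 10 of the mitosis list did without any of the 6 libraries. In bulk RNA, fewer dividing cells and less of a transcript in each cell cannot be told apart.

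**Figure D4:**
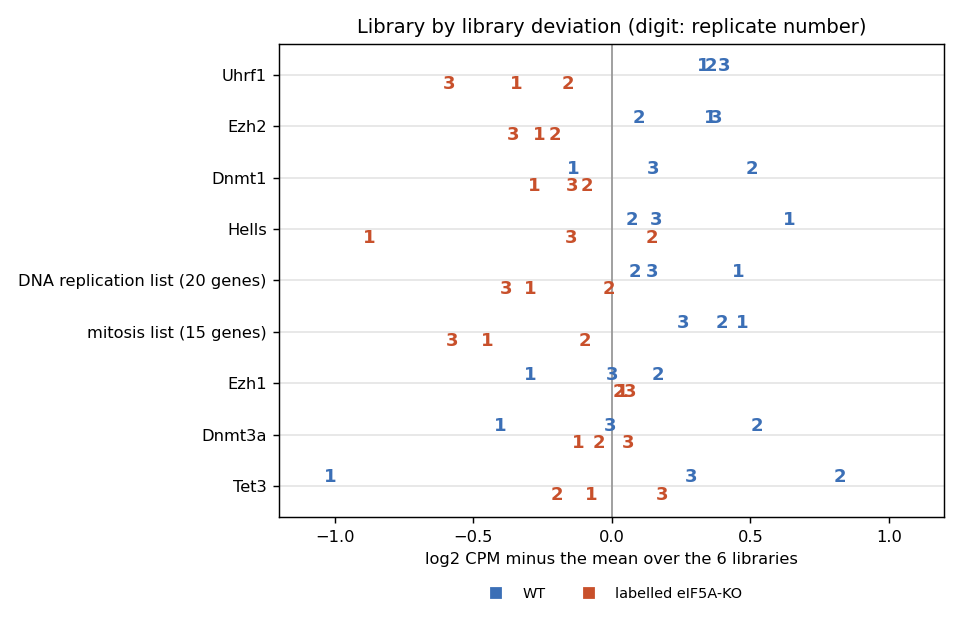
Deviation of log2 CPM in each library from the mean over the 6 libraries, for 7 of the 10 genes and for the mean of the DNA replication and mitosis lists. Digits are replicate numbers, in blue for WT and red for libraries labelled eIF5A-KO, and for Uhrf1, Ezh2 and both lists all blue digits lie to the right of all red ones.

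For Dnmt1, Uhrf1, Hells and Ezh2, the log2 CPM was also compared with the mean log2 CPM of the DNA replication list in the same library. For Ezh2 this difference was -0.87, -0.75 and -0.54 in WT and -0.74, -0.96 and -0.74 in the libraries labelled eIF5A-KO, with overlap. Its group means differed by -0.094 (exact two-sided permutation p = 0.6, adjusted 0.96). For Uhrf1 the difference to the list was 0.50, 0.90 and 0.88 in WT and 0.57, 0.48 and 0.42 in the libraries labelled eIF5A-KO, which again overlapped. The group means of Uhrf1 differed by -0.27 (exact two-sided permutation p = 0.2, adjusted 0.8), those of Dnmt1 by 0.11 (p = 0.8) and those of Hells by -0.13 (p = 0.9).

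**Figure D5:**
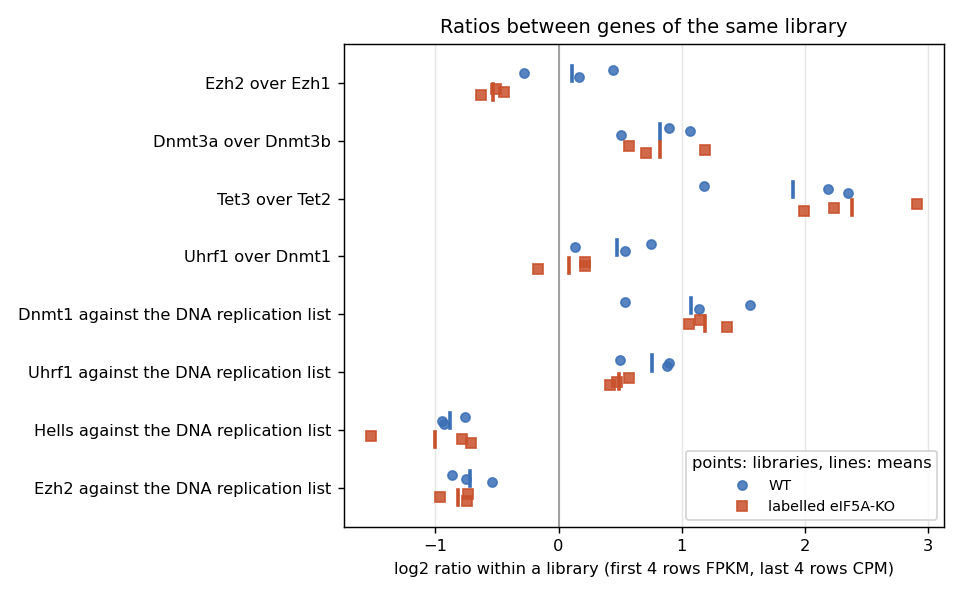
Log2 ratios within each library, between members (first 4 rows, FPKM) and of members to the mean of the DNA replication list (last 4 rows, CPM), with 1 point per library and a line at each group mean (n = 3). The groups are apart only for Ezh2 over Ezh1, whose mean log2 ratio is 0.11 in WT and -0.53 in the libraries labelled eIF5A-KO.

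The genes whose profile over the 6 libraries was closest to that of a member were found by the root mean square difference of centred log2 CPM, over 11037 genes with a mean of at least 5 CPM. For Uhrf1 they were Trim59 (difference 0.077), the spindle protein Ckap2l (0.087) and the transcription factor Mybl2 (0.099). For Ezh2 they were Pts (0.047), Metap1d (0.076) and the chromatin protein Hmgb1 (0.084). For Dnmt1 they were Prkab2 (0.039), Paxip1 (0.054) and Cntln (0.058).

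Markers of the cultured cells and of other muscle cells also varied between the libraries. The 8 myoblast markers, 7 of them lower, summed to 729 to 1808 CPM in WT and 680 to 1222 CPM in the libraries labelled eIF5A-KO, and Myod1, the highest in mean CPM, had a log2 fold change of -0.61 (edgeR adjusted p = 0.794). Chrna1, a subunit of the muscle acetylcholine receptor, was at 85.3, 224 and 148 CPM in WT and at 74.9, 43.8 and 29.9 CPM in the libraries labelled eIF5A-KO, without overlap (log2 fold change -1.62, unadjusted p of 0.00262 in edgeR). DESeq2 called it after adjustment, and so did edgeR, together with Pax7, with no filter on low counts and without WT replicate 1. Without WT replicate 2, 4 were lower and 4 higher, and their median log2 fold change was -0.089 in place of -0.45. All 6 mural cell markers were higher (5 of 6 without replicate 3 of the libraries labelled eIF5A-KO), with sums of 338 to 476 CPM in WT and 609 to 684 CPM in the libraries labelled eIF5A-KO. Of the 6, 4 had an unadjusted edgeR p under 0.05 and groups without overlap (Cspg4, Kcnj8, Myh11 and Pdgfrb). Pdgfrb, the highest in mean CPM, had a log2 fold change of 0.81 (edgeR adjusted p = 0.398) and was called after adjustment with no filter on low counts, and Myh11 rose from 10.5, 10.98 and 10.5 CPM to 29.2, 28.3 and 34.2 CPM (log2 fold change 1.52, edgeR adjusted p = 0.0486). Myh11 was not called after adjustment with limma-voom, with RLE size factors, with library size alone, with at least 10 counts required in every library or without any single library other than WT replicate 1. The 6 endothelial markers were all higher (5 of 6 without WT replicate 1, and 5 of 6 without replicate 3 of the libraries labelled eIF5A-KO), with sums of 957 to 2067 against 1709 to 2593 CPM. Cdh5 was the highest of them in mean CPM and Cldn5 in mean FPKM, and 1 of the 6 had an unadjusted edgeR p under 0.05. The 7 fibroblast markers, led by Dcn in mean CPM, had sums of 2088 to 2712 against 2153 to 2897 CPM, with 5 genes lower (2 without WT replicate 1) and 2 higher. The 2 higher genes were the collagen genes Col1a1 (log2 fold change 0.72) and Col1a2 (0.71), both without overlap and with unadjusted edgeR p-values of 0.0106 and 0.00893, and 0 of the 5 lower genes had an unadjusted p under 0.05. The 7 macrophage markers, led by Lyz2 in mean CPM, had sums of 61.2 to 131 against 66.0 to 162 CPM, with 5 genes higher (7 without WT replicate 2). Of these, Cd68 had a log2 fold change of 0.84 with overlapping groups (unadjusted edgeR p of 0.0338) and was called after adjustment with no filter on low counts. The leukocyte gene Ptprc was at 2.55 CPM or less in every library. No marker was at 0 in any library. Genes of fibroblasts, endothelial cells and mural cells were thus present in every library beside those of myoblasts. The fibroblast list summed to more CPM than the myoblast list in every library. The levels of Uhrf1 and Ezh2 are therefore those of the whole culture, and the part of the other cells in them was not tested.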

How the data were processed

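Bulk RNA-seq of 6 libraries of mouse primary myoblasts was analysed (3 WT, 3 labelled eIF5A-KO). Per the labels and methods, total RNA (TRIzol) went into libraries made with an NEBNext Ultra kit, HISAT aligned the reads to mm10, and the authors deposited unnormalised read counts per gene, with DEGSeq2 named for coverage. The HISAT version, the annotation and the treatment of multi-mapping reads are not given in the sources used here. A second deposited table holds the FPKM of the authors, whose denominator in each library was the DESeq-type size factor times the geometric mean of total counts (ratio 1). Gene coordinates are those of the count table, and those of the 10 genes were checked against GENCODE vM21 (GRCm38).

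Counts were tested with edgeR 4.0.16 in R 4.3.3 (filterByExpr, TMM factors, quasi-likelihood F test, two-sided, prior count 0.125, no covariate) with Benjamini-Hochberg adjustment over 14679 genes. The biological coefficient of variation was 0.239. Ratios within a library were compared with exact permutation tests over libraries. Alternatives were other scaling factors, other filters, DESeq2 1.42.0, limma-voom and limma on log2(FPKM + 1) or log2(FPKM + 0.1) (limma 3.58.1), the replicate number as a block, and each library left out. Copies were searched with blastn 2.17.0 (at least 200 bases at 90% identity). The members, lists and tests were chosen with earlier results of these data known. Named genes are the 10 members, fixed subunits and partners, any other gene of the pathway and target lists with an unadjusted p under 0.05, the 3 closest profiles to Dnmt1, Uhrf1 and Ezh2, and the gene with the highest mean CPM in each proliferation or cell type list. Of these genes, 1 is not reported here. Cdkn2b, Col1a1, Col1a2, Cspg4, Kcnj8, Cldn5 and the genes of those lists called by DESeq2 or another edgeR setting were named after their values were seen. The test was run on simulated data: of 14679 genes, edgeR called 89 of 102 with a true log2 fold change of 2 or -2, 36 of 98 with 1 or -1 and 9 unchanged ones. Confidence intervals are at 95% and come from the fit.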

Additional observations from a re-analysis of the deposited data

How the results depend on the processing

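The 17 alternatives gave 510 values for 30 of the named genes: the 10 members, Eif5a, and genes of the pathway and target lists. Of these values, 486 kept their direction and their side of the adjusted threshold, 8 newly passed it and 16 turned direction. Genes named only from the proliferation and cell type lists were not in this tally. Myh11 is among those left out, and it lost its adjusted call in the settings given above. The number of all tested genes with an adjusted p under 0.05 was 3 with edgeR and TMM factors. It was 0 with RLE size factors (992 genes at an unadjusted p under 0.05), library size alone (966), at least 10 counts in every library (907), limma-voom (961), limma on log2(FPKM + 1) (980) and limma on log2(FPKM + 0.1) (980). It was 249 with no filter on low counts (1703 unadjusted) and 92 with DESeq2 (1009 unadjusted). When each library was left out it lay between 0 and 56 (585 to 1530 unadjusted), with 56 without WT replicate 1 and 0 without any of the others. The causes were not tested. Of the 10 genes, 0 passed after adjustment in every edgeR and limma setting and 1, Uhrf1, passed with DESeq2. At an unadjusted p under 0.05 they numbered 3 in edgeR, 4 with no filter and 2 to 5 when each library was left out, with 5 without WT replicate 1 (585 to 1530 of all genes).

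The sources used here name no pairing of the samples by replicate number. Deviations from the group means correlated between same-numbered libraries at 0.078, -0.14 and 0.11, over genes. Between differently numbered libraries they correlated at -0.24 to 0.24. So few correlations cannot settle whether same-numbered libraries shared a batch. With the replicate block, 24 of all tested genes had an adjusted p under 0.05 (875 unadjusted), and of the 10 genes 0 did (2 unadjusted, without Tet1).

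With each library left out in turn, log2 fold changes ranged from -0.31 (without WT replicate 1) to 0.16 (without WT replicate 2) for Dnmt3a, from -0.30 to 0.076 for Dnmt3b, from -0.59 to 0.20 for Tet3, from -0.033 to 0.19 for Ezh1, from -0.20 to 0.58 for Kdm6b, from -0.032 to 0.20 for Ring1, from -0.15 to 0.058 for Rnf2, from -0.18 to 0.25 for Jarid2 and from -0.13 to 0.23 for Eif5a. Dnmt3b turned without WT replicate 2, WT replicate 3 or eIF5A-KO replicate 2, Tet3 without WT replicate 2, Ezh1 and Kdm6b without WT replicate 1, Ring1 without eIF5A-KO replicate 1, and Rnf2 without WT replicate 1 or eIF5A-KO replicate 1. Jarid2 also turned to -0.027 with library size alone. Of 52 ratio values 5 turned: Dnmt3a over Dnmt3b was -0.015 with a pseudocount of 1 and ranged from -0.18 to 0.13 with single libraries left out, Dnmt1 against the replication list from -0.16 (without WT replicate 1) to 0.35, and Hells against it from -0.28 to 0.13 (without eIF5A-KO replicate 1). None of these genes or ratios had passed a threshold. Tet1 had the fewest reads of the 10 genes, 10 to 70 counts per library.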
